A study of Homo sapiens with 4 samples.

Results

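Tight junction components are followed here through 9 genes, chosen by name among the 58735 genes of a deposited expression table: LSR, CLDN1, CLDN4, CLDN7, CLDN12, OCLN, TJP1, F11R and CGN. Each name matched 1 row of the table. RNA sequencing was done on a cell line whose labels call it a human lung squamous cell carcinoma cell, in libraries named for a dose of 30 Gy (2 libraries, replicates 1 and 2) and 0 Gy (2 libraries, replicates 1 and 2), gray being the unit of absorbed radiation dose. The design text names the SK-MES-1 line and SK-MES-1-RR, a line derived from it that resists radiotherapy, but the labels tie neither line to a library and do not give the schedule of irradiation or the time of RNA harvest, so the groups are called by dose alone. A difference between the lines therefore cannot be told apart from one of dose. The labels enter "cell line" as the genotype in both groups and name no transgene or drug. It is not stated that replicates were separate cultures, so the p-values below measure the spread between these libraries, which may be technical. In bulk RNA, fewer cells expressing a gene and less of its RNA per cell cannot be told apart.

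Tight junctions seal the space between neighbouring epithelial cells near their apical side. Claudins, membrane proteins with 4 passes, form the strands of the seal, and the set of claudins a cell makes decides which ions pass. Occludin (OCLN) and the adhesion molecule JAM-A (F11R) accompany the strands, and LSR, also named angulin-1, marks the corners where 3 cells meet and recruits tricellulin there. Inside the cell, ZO-1 (TJP1) binds the tails of claudins through its PDZ domains and ties them to actin, and cingulin (CGN) connects the ZO proteins to actomyosin. In lung epithelium these proteins form the airway barrier, and in carcinomas their levels vary widely with the degree of epithelial differentiation.

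The members did not move as one group. LSR and CLDN1 fell at 30 Gy, 1.88-fold and 1.52-fold by the ratio of mean FPKM (fragments counted per gene, scaled to gene length and library size), and the scaffold gene TJP1 rose 1.30-fold. CLDN4, CLDN12 and F11R did not pass the test, and OCLN, CGN and CLDN7 were low, under 0.5 FPKM in all 4 libraries. The test was limma on log2(FPKM + 1), with p-values adjusted over the 13379 genes that reached an FPKM of 1 in 2 or more of the libraries; 6 of the 9 members met that condition and 3 did not. It called 1 member higher and 2 lower, 3 of 6 in all. Over all tested genes it called 19.8% (10.8% higher and 9.06% lower at 30 Gy). The members were chosen with earlier results of these data known, so 3 of 6 is not read as an excess over that share. The groups of libraries did not overlap for 4 of the 6 tested members, against 65.2% of all tested genes, a share close to the background. The median log2 change of the 6 was 0.06, beside -0.00068 for all tested genes.

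**Figure D1:**
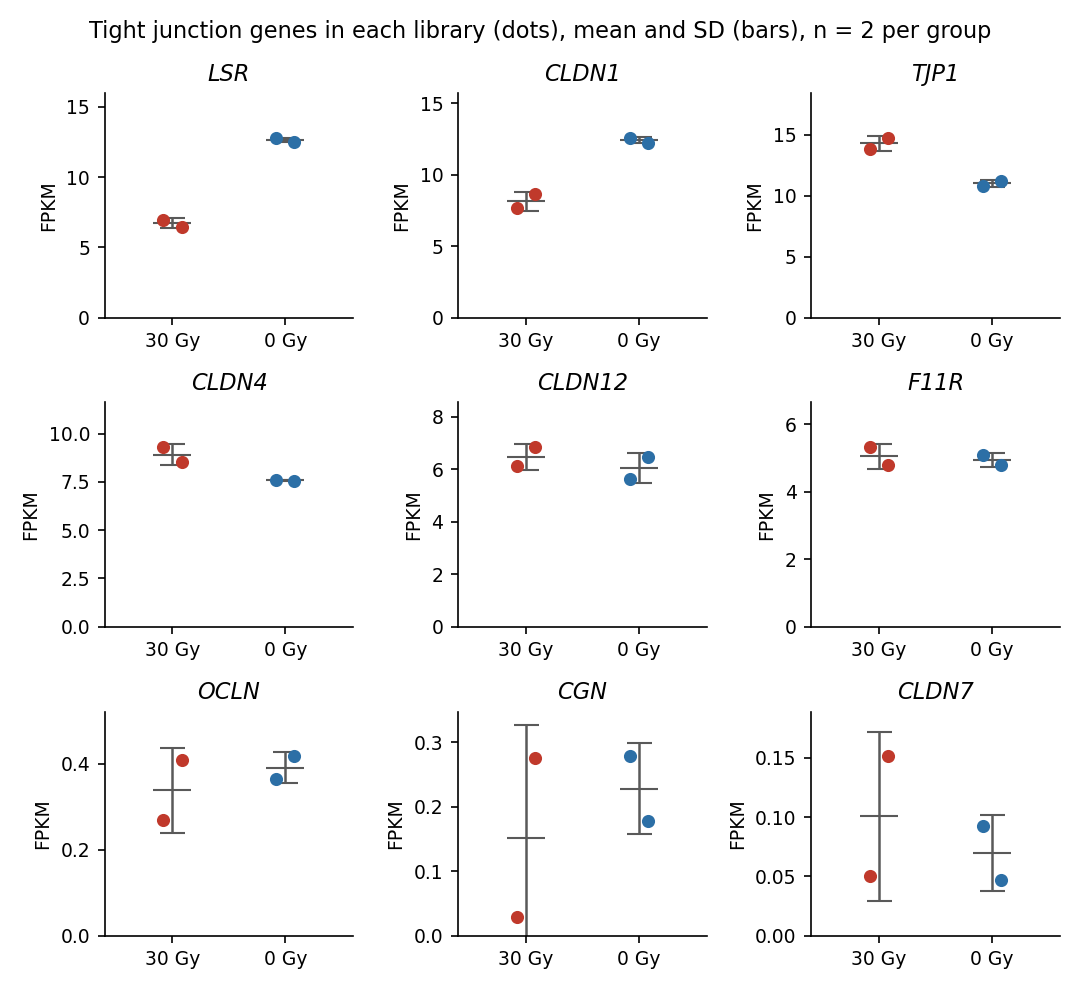
FPKM of the 9 members in each library, 30 Gy on the left and 0 Gy on the right of each panel; dots are libraries, the horizontal bar is the mean and the error bar the SD (n = 2 per group), and each panel has its own axis from 0, where the error bar of CGN at 30 Gy is cut off. LSR and CLDN1 are lower and TJP1 and CLDN4 higher in both 30 Gy libraries than in both 0 Gy libraries, while the dots of the other 5 members overlap between groups.

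The libraries held 15920861 to 17261121 reads, recovered from the FPKM values and gene lengths. Across the tested genes, which are not independent replicates, log2(FPKM + 1) gave a Pearson r of 0.981 within 30 Gy, 0.984 within 0 Gy and 0.956 to 0.958 between groups, and each library was closer to its own group than to the other. The epithelial keratin genes KRT7, KRT8, KRT18 and KRT19 were expressed at 38.6 to 221 FPKM in the 30 Gy libraries and 35.7 to 165 FPKM in the 0 Gy libraries. KRT7 rose 2.20-fold (adjusted p = 0.00232) and KRT19 fell 1.83-fold (adjusted p = 0.00424), while KRT8 and KRT18 did not pass. Of the defining squamous genes KRT5 had 0 reads in each library and KRT14 had 0 to 4, while TP63 stood at 3.19 and 3.34 FPKM at 30 Gy and 3.95 and 4.14 FPKM at 0 Gy. Markers of endothelium (6 genes, summed 0.208 to 0.299 FPKM at 30 Gy and 0.230 to 0.244 at 0 Gy) and of blood cells (6 genes, summed 0.482 and 0.574 FPKM at 30 Gy and 0.791 in both 0 Gy libraries) were near 0, with CDH5, CD3E and HBB at 0 reads. The 8 fibroblast markers summed to 73.0 to 79.0 FPKM at 30 Gy and 63.0 to 63.3 at 0 Gy; COL1A1 gave nearly all of it, with 76.3 and 69.6 FPKM at 30 Gy and 62.1 and 62.4 FPKM at 0 Gy (log2 change 0.22, adjusted p = 0.0795), while COL1A2 had 0 to 1 read and DCN had 0. PDGFRB had 166 and 171 reads at 30 Gy and 81 and 87 reads at 0 Gy (log2 change 0.56, adjusted p = 0.0535). LUM had 43 and 63 reads at 30 Gy and 1 and 5 reads at 0 Gy, and THY1 had 27 and 34 reads at 30 Gy and 15 and 12 reads at 0 Gy. Of this list 2 genes were tested; limma called 0, both were higher at an unadjusted p under 0.05, and voom called both higher. The part of these markers in the members' changes was not tested.

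The bases before the start sites of the 3 called members are shown because these are the members whose RNA differed between the groups. Those of CLDN7 are shown because its window held more copies of a searched motif than any other member's window. Each run covers the 250 bases before a start site annotated by RefSeq on GRCh38.p14, 5′ to 3′ on the gene's strand, and capitals mark a motif found by search on both strands.
LSR, chr19:35248752-35249001, plus strand: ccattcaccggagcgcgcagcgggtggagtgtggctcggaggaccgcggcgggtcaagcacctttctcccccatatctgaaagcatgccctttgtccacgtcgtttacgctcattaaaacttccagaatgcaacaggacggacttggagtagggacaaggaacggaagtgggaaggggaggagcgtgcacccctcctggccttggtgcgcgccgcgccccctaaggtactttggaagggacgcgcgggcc
CLDN1, chr3:190322447-190322696, minus strand: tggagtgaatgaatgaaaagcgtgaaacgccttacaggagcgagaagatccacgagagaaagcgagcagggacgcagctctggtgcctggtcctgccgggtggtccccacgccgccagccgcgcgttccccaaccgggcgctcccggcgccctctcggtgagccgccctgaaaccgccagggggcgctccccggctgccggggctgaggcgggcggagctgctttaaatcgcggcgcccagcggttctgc
TJP1, chr15:29969050-29969299, minus strand, the farthest upstream of its 4 start sites: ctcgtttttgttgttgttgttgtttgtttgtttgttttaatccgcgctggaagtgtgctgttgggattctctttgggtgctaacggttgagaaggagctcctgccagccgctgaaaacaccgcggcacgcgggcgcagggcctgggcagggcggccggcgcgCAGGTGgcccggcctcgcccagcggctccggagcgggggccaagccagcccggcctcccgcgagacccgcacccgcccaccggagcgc
CLDN7, chr17:7262479-7262728, minus strand, the inner of its 2 start sites: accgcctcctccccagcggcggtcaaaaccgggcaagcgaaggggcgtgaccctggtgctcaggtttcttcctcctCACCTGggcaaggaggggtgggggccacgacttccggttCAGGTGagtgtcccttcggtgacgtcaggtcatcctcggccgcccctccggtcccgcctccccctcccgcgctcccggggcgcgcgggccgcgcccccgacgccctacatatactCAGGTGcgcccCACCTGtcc

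The motifs searched were CAGGTG (reverse CACCTG), the E-box bound by SNAIL and ZEB repressors, AACCGGTT, bound by grainyhead-like factors, and TGAGTCA (reverse TGACTCA), bound by AP-1. None of them overlaps another in these windows. Of 35116 promoter windows of this length in the table, 17.5% held the E-box, 0.117% the grainyhead-like motif and 4.20% the AP-1 motif. The table held 13 windows for 8 members, LSR, CLDN1, CLDN4, CLDN7, CLDN12, OCLN, TJP1 and CGN. The E-box was found in 4 windows of 3 members. CLDN7 held 4 copies, whose first letters lie at -174, -135, -20 and -9 from the start site; OCLN held 1 copy in each of its 2 windows, at -33 and -133, and TJP1 held 1, at -88, in the window shown. CLDN4 held the AP-1 motif at -161. The windows of LSR and CLDN1, shown above in lower case throughout, held none of the 3 motifs. OCLN and CLDN7, with E-boxes, were among the 3 members under the FPKM filter, together with CGN, whose window held none, and TJP1, with an E-box, was the member that rose. A match describes letters only, and binding was not measured. Any link between the motif and these levels was not tested.

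LSR, the tricellular junction protein, changed most. It lies at 19:35248330-35267964 (hg38, plus strand; ENSG00000105699) and stood at 6.98 and 6.47 FPKM in the 30 Gy libraries (325 and 300 reads), against 12.8 and 12.5 FPKM in the 0 Gy libraries (648 and 621 reads). Both 30 Gy libraries were low, both 0 Gy libraries were high, and the gap between the groups was far wider than that between replicates. The means were 6.72 ± 0.364 FPKM at 30 Gy and 12.6 ± 0.170 FPKM at 0 Gy (SD, n = 2 each), a log2 change in FPKM + 1 of -0.82 ± 0.07 (SE; 95% interval -1.01 to -0.64) with an adjusted p of 0.00461. LSR missed the threshold of 0.05 when either 0 Gy replicate was left out, as did every tested gene. Its log2 change was then -0.81 without replicate 1 and -0.83 without replicate 2. In those fits the lone 0 Gy library was assumed to vary like the 30 Gy ones.

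The other genes of cell corners examined here did not pass or were not tested. MARVELD2, which encodes tricellulin, the protein that LSR recruits, stood at 1.47 and 1.59 FPKM at 30 Gy and 1.63 and 1.98 FPKM at 0 Gy, and its log2 change of -0.15 (95% interval -0.48 to 0.19) did not pass (adjusted p = 0.464). Both 30 Gy libraries of MARVELD2 lay below both 0 Gy libraries, as they did for 4318 of the 13379 tested genes. ILDR1 and ILDR2, the other angulins, had 0 to 25 reads per library and were not tested. LSR thus had the highest FPKM of the 3 angulins in each library.

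CLDN1, a sealing claudin that mice need for a tight skin barrier, also fell. The gene, at 3:190305701-190322475 (minus strand; ENSG00000163347), had 7.64 and 8.61 FPKM at 30 Gy (447 and 502 reads) and 12.5 and 12.2 FPKM at 0 Gy (799 and 762 reads). The groups did not overlap, and the 30 Gy replicates lay farther apart than the 0 Gy replicates. The means were 8.13 ± 0.686 FPKM at 30 Gy and 12.4 ± 0.209 FPKM at 0 Gy (SD, n = 2 each). The log2 change was -0.55 ± 0.08 (SE; 95% interval -0.76 to -0.35), with an adjusted p of 0.0145. It missed the threshold with no filter on low values (adjusted p = 0.0665). It also missed it in 3 of the 4 fits that left out a library. The log2 change was -0.48 without 30 Gy replicate 1, -0.54 without 0 Gy replicate 1 and -0.57 without 0 Gy replicate 2. Without a 0 Gy replicate every tested gene missed the threshold, so that miss is not particular to CLDN1.

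CLDN4, a sealing claudin and a known receptor of a clostridial enterotoxin, leaned the other way without passing. It had 9.29 and 8.54 FPKM at 30 Gy (697 and 639 reads) and 7.60 and 7.54 FPKM at 0 Gy (622 and 603 reads) at 7:73799542-73832693 (plus strand; ENSG00000189143). Both 30 Gy libraries lay above both 0 Gy libraries. The log2 change of 0.21 ± 0.07 (SE; 95% interval 0.02 to 0.40) had an adjusted p of 0.108. CLDN12 (7:90383721-90513402, plus strand; ENSG00000157224), an unusual claudin without the PDZ-binding tail of most others, had 6.13 and 6.84 FPKM at 30 Gy and 5.63 and 6.46 FPKM at 0 Gy. Its groups overlapped, with a log2 change of 0.09 (95% interval -0.16 to 0.34) and an adjusted p of 0.555. CLDN12 shares 5.15% of its exonic bases with GTPBP10 and 2.98% with CDK14, both on its strand, so a small part of its reads is uncertain.

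**Figure D2:**
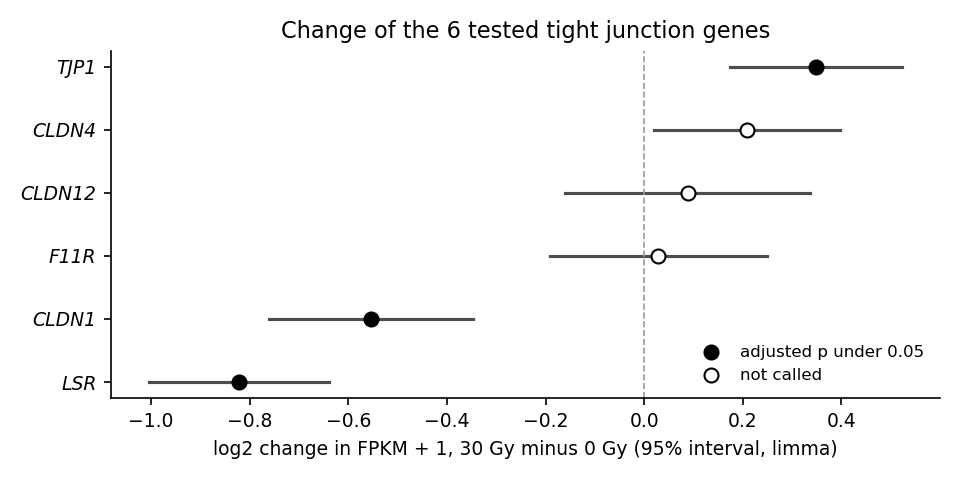
Log2 change in FPKM + 1, 30 Gy minus 0 Gy, of the 6 members tested, with the 95% interval of limma (n = 2 libraries per group); filled points passed an adjusted p of 0.05. The intervals of LSR and CLDN1 lie below 0 and those of TJP1 and CLDN4 above it, although CLDN4 did not pass after adjustment, and those of CLDN12 and F11R span 0.

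The make-up of the claudin pool differed between the 30 Gy and 0 Gy libraries. Over the 24 claudin genes of the table, summed FPKM was 35.3 and 36.9 at 30 Gy and 41.6 and 41.9 at 0 Gy. CLDN1 held 21.6% and 23.3% of that sum at 30 Gy, against 30.1% and 29.2% at 0 Gy. CLDN4 held 26.3% and 23.1% at 30 Gy, against 18.28% and 18.03% at 0 Gy. CLDN1 was the larger of these at 0 Gy, with a ratio of CLDN1 to CLDN4 FPKM of 1.65 and 1.62. At 30 Gy the ratio was 0.823 and 1.01, near parity in FPKM. The size of this ratio rests on merged exon lengths of 3663 bases for CLDN1 and 4702 for CLDN4. Before scaling to length, CLDN1 had 447 and 502 reads at 30 Gy, and CLDN4 had 697 and 639. CLDN12 held 17.4% and 18.5% at 30 Gy and 13.5% and 15.4% at 0 Gy. The groups did not overlap in any of these shares, as was the case for the levels of 65.2% of all tested genes. No test was run on the shares, since the smallest two-sided p of an exact permutation test with 2 libraries per dose is 0.33. CLDN1 was already called lower, so its lower share adds no evidence to that call. A share also moves when another member of the sum moves. The rises in the shares of CLDN4 and CLDN12 came with no called change of their levels.

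**Figure D3:**
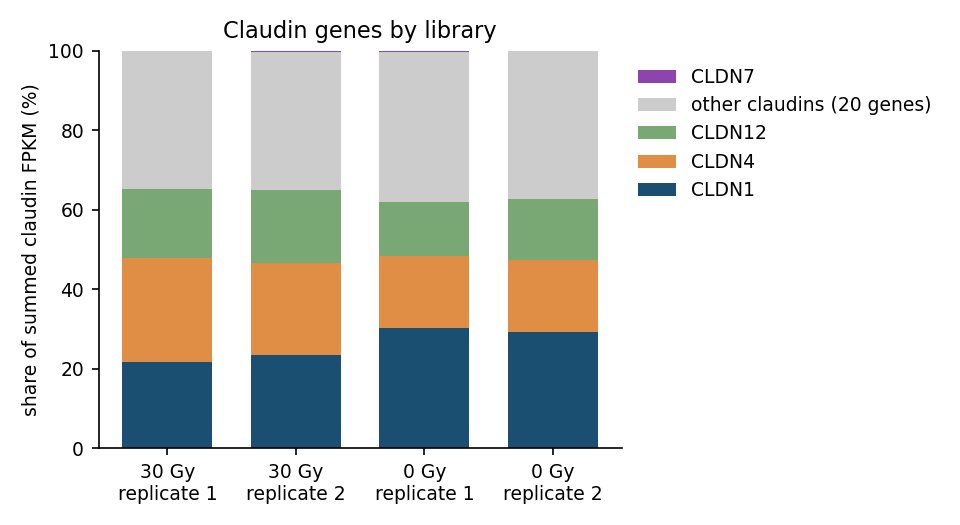
Share of summed claudin FPKM in each library, 30 Gy on the left, stacked from CLDN1 at the bottom to CLDN7 at the top; the grey block pools the 20 claudin genes that are not members. CLDN1 makes up 21.6% and 23.3% in the 30 Gy bars and 30.1% and 29.2% in the 0 Gy bars, and CLDN7 is too small to see in most bars.

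The other claudins did not pass. Of 22 further claudin and claudin-domain genes, 6 were tested, and limma called 0 (2 were lower at an unadjusted p under 0.05, and voom called 1 lower); 7 had 0 reads in every library. The median log2 change of the 6 was -0.24, beside -0.00068 for all tested genes. Among the 7, CLDN22 shares 100% of its exonic bases with WWC2 on the opposite strand. The rule for shared reads is not stated, so its 0 is not read as absence. CLDN3, a sealing claudin, had 2.90 and 3.60 FPKM at 30 Gy and 4.28 and 4.39 FPKM at 0 Gy (log2 change -0.33, adjusted p = 0.0939). CLDND1, which carries a claudin-like domain and was the most abundant gene of the list, had 41.8 and 45.2 FPKM at 30 Gy and 40.3 and 41.2 FPKM at 0 Gy (log2 change 0.09, adjusted p = 0.366).

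TJP1, the scaffold ZO-1, was the member that rose. The gene lies at 15:29699367-29968865 (minus strand; ENSG00000104067) and had 13.9 and 14.7 FPKM at 30 Gy (2496 and 2639 reads), against 10.8 and 11.2 FPKM at 0 Gy (2122 and 2147 reads). Each 30 Gy library was above each 0 Gy library, with means of 14.3 ± 0.599 FPKM at 30 Gy and 11.02 ± 0.275 FPKM at 0 Gy (SD, n = 2 each). The log2 change was 0.35 ± 0.07 (SE; 95% interval 0.17 to 0.52) and the adjusted p 0.0283. With no filter on low values it missed the threshold (adjusted p = 0.0795). It also missed it in each of the 4 fits with a library left out. The log2 change was 0.39 without 30 Gy replicate 1 and 0.31 without 30 Gy replicate 2. It was 0.32 without 0 Gy replicate 1 and 0.37 without 0 Gy replicate 2. Without a 0 Gy replicate every tested gene missed the threshold, so that miss is not particular to TJP1.

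Relative to TJP1 RNA in the same library, the RNA of LSR and of CLDN1 was lower at 30 Gy. The ratio of LSR to TJP1 FPKM was 0.503 and 0.439 at 30 Gy, against 1.18 and 1.12 at 0 Gy. The ratio of CLDN1 to TJP1 was 0.551 and 0.585 at 30 Gy, against 1.16 and 1.09 at 0 Gy. LSR and CLDN1 were taken as members called lower and TJP1 as the member called higher. Both ratios therefore had to fall, and they add no evidence to the calls. No test was run on them.

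F11R, which encodes JAM-A, a homophilic adhesion molecule that binds ZO-1, did not pass. It had 5.32 and 4.79 FPKM at 30 Gy and 5.08 and 4.78 FPKM at 0 Gy (1:160995211-161021348, minus strand; ENSG00000158769). The groups overlapped. The log2 change was 0.03 (95% interval -0.19 to 0.25; adjusted p = 0.845). AL591806.3, a protein-coding gene on the same strand, covers 36.6% of the exonic bases of F11R and was listed at 0.0593 and 0.119 FPKM at 30 Gy and 0.0544 and 0.0557 FPKM at 0 Gy. The rule for reads in shared exons is not stated, so the level of F11R is uncertain.

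The 3 members under the filter were OCLN, CGN and CLDN7. OCLN, which encodes occludin, had 29 and 44 reads at 30 Gy and 43 and 48 reads at 0 Gy (0.269 and 0.409 FPKM at 30 Gy, 0.365 and 0.418 FPKM at 0 Gy). The groups overlapped, and every library was well above the FPKM of 0.0255 to 0.0279 that 3 reads would give. CLDN7, a claudin that binds EPCAM, had 2 and 6 reads at 30 Gy and 4 and 2 reads at 0 Gy. Those counts lie around the floor of 3 reads (0.0692 to 0.0757 FPKM), so no difference was detectable at this depth. EPCAM, the partner, had 3.48 and 3.42 FPKM at 30 Gy and 5.91 and 3.83 FPKM at 0 Gy (log2 change -0.38, adjusted p = 0.199).

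CGN, cingulin, was uneven between replicates. It had 3 and 29 reads at 30 Gy and 32 and 20 reads at 0 Gy. The exact Poisson 95% interval of the first 30 Gy library ran from 0.619 to 8.77 reads and that of the second from 19.4 to 41.6 reads, so these replicates differed beyond counting error. Replicates differed beyond counting error in other genes too. The mean chi-square per gene between replicates was 5.26 at 30 Gy (15900 genes) and 5.66 at 0 Gy (16089 genes). The low level of CGN at 30 Gy rests on the first library, and its groups overlapped. With every gene above 0 tested, the log2 changes were -0.06 for OCLN (adjusted p = 0.782), -0.10 for CGN (0.710) and 0.04 for CLDN7 (0.768). voom on recovered reads, for genes with at least 10 reads in at least 2 libraries, a fit chosen after the data were seen, gave -0.25 for OCLN (adjusted p = 0.657) and -1.25 for CGN (0.192).

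**Figure D4:**
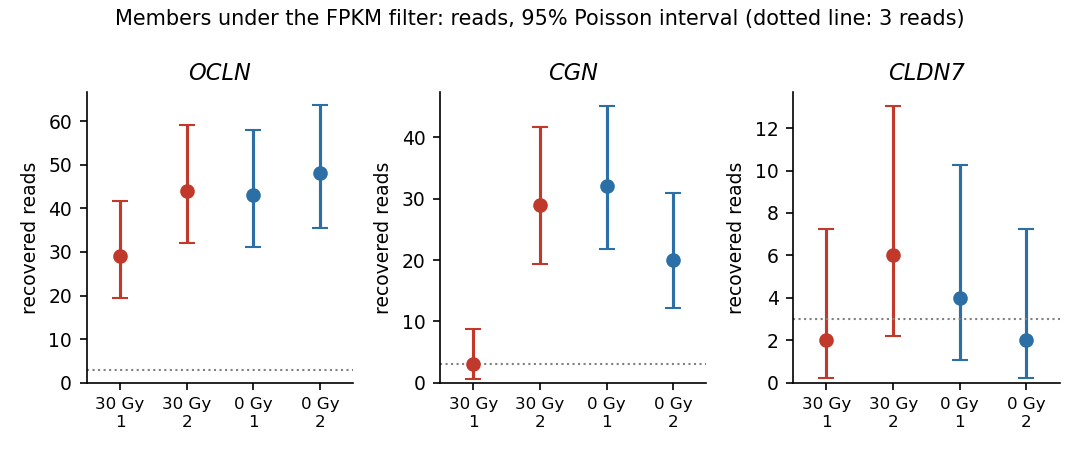
Recovered reads of the 3 members under the FPKM filter in each library, 30 Gy on the left; bars are exact Poisson 95% intervals, which cover counting error only, and the dotted line marks 3 reads. CGN has 3 reads in the first 30 Gy library and 29 in the second, and all 4 counts of CLDN7, 2 to 6 reads, lie around the dotted line.

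Since FPKM is scaled to gene length, levels can be ordered across the members. At 30 Gy, TJP1 was highest, followed by CLDN4, CLDN1, LSR, CLDN12 and F11R, then OCLN, CGN and CLDN7. CLDN4 and CLDN1 overlapped at 30 Gy, as did LSR and CLDN12, OCLN and CGN, and CGN and CLDN7. At 0 Gy, LSR and CLDN1 were highest and overlapped (12.5 to 12.8 and 12.2 to 12.5 FPKM), followed without overlap by TJP1, CLDN4, CLDN12, F11R, OCLN, CGN and CLDN7. LSR ranked 4 of 9 at 30 Gy and 1 of 9 at 0 Gy. The length behind each value was the merged length of all annotated exons (2492 bases for CLDN7 to 11265 bases for TJP1), and a cell that uses a shorter transcript has a higher true level than its FPKM shows.

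voom on the recovered reads called the same members as limma, LSR and CLDN1 lower and TJP1 higher, with adjusted p of 2.28e-05, 0.000317 and 0.00146; it called 31.6% of all tested genes. Its log2 changes, with a constant of 0.5 reads that is small at these depths, were -0.93, -0.63 and 0.36.

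The genes beside the members on the chromosome were examined for a shared shift. Over the 10 nearest tested genes on each side, the median log2 change was 0.07 around LSR. There limma called 0 of 20 genes (1 higher and 0 lower at an unadjusted p under 0.05), and voom called 1 higher and 1 lower. Around CLDN1 the median was -0.03, and limma called 1 of 20 genes higher and 1 lower. At an unadjusted p under 0.05, 2 neighbours of CLDN1 were higher and 5 lower, and voom called 1 higher and 3 lower. Around TJP1 the median was 0.17, and limma called 4 of 20 neighbours higher and 0 lower. There 5 were higher and 0 lower at an unadjusted p under 0.05, and voom called 5 higher and 0 lower. Around CLDN4 the median was 0.10, and limma called 5 of 20 neighbours higher and 0 lower. At an unadjusted p under 0.05, 8 were higher and 2 lower, and voom called 4 higher and 1 lower. Over all tested genes, 10.8% were called higher and 9.06% lower. With 5 neighbours on each side the medians were 0.06 around TJP1 and 0.23 around CLDN4. The part of a regional shift in the values of LSR, CLDN1, TJP1 and CLDN4 was not tested. Around the other 5 members the medians ran from -0.02 to 0.15, and limma called 1 to 3 of 20 neighbours higher and 0 or 1 lower.

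Among other transmembrane proteins of the junction, 2 genes related to F11R within the immunoglobulin superfamily moved in opposite directions. CLMP, an adhesion protein similar to CXADR, had 10.02 and 10.17 FPKM at 30 Gy and 4.66 and 4.63 FPKM at 0 Gy (log2 change 0.98 ± 0.07 SE, adjusted p = 0.00294). CXADR, the coxsackievirus and adenovirus receptor, had 4.003 and 4.233 FPKM at 30 Gy and 7.09 and 7.39 FPKM at 0 Gy (log2 change -0.69 ± 0.08 SE, adjusted p = 0.00775). Both pairs of libraries were closely matched within each dose. Over all tested genes, limma called 10.8% higher and 9.06% lower. Of the 13 genes on this list 6 were tested, 1 rose and 1 fell, with a median of 0.14. These calls and those of the lists that follow all end when either 0 Gy library is left out, since limma then called 0 of the 13379 genes (3422 without 0 Gy replicate 1 and 3460 without 0 Gy replicate 2 at an unadjusted p under 0.05).

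Of 18 scaffold and plaque genes 13 were tested, 1 rose and 3 fell, with a median of -0.07. The shares over all tested genes were 10.8% higher and 9.06% lower. AMOTL1, an angiomotin-like protein that binds YAP and junction scaffolds, had 2.67 and 3.09 FPKM at 30 Gy and 1.04 and 1.44 FPKM at 0 Gy (log2 change 0.80, adjusted p = 0.0233). Its relative AMOTL2 had 12.2 and 11.3 FPKM at 30 Gy and 17.94 and 20.04 FPKM at 0 Gy (log2 change -0.65, adjusted p = 0.0110). These relatives thus passed in opposite directions. ARHGEF11, an activator of RhoA that binds ZO-1, fell 1.44-fold to a mean of 9.70 ± 0.893 FPKM at 30 Gy (adjusted p = 0.0209), against 14.0 ± 0.213 at 0 Gy. PATJ, a scaffold of many PDZ domains, fell 1.37-fold to 4.52 ± 0.307 FPKM, against 6.20 ± 0.213 at 0 Gy (adjusted p = 0.0347).

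Of 19 polarity genes 16 were tested, 1 rose and 3 fell, with a median of -0.08. The shares over all tested genes were 10.8% higher and 9.06% lower. LLGL1 and LLGL2, both homologues of the fly tumour suppressor lethal giant larvae, went opposite ways: LLGL1 had 8.42 and 7.65 FPKM at 30 Gy and 4.46 and 5.01 FPKM at 0 Gy (log2 change 0.66, adjusted p = 0.0129), and LLGL2 had 3.13 and 2.39 FPKM at 30 Gy and 4.67 and 4.57 FPKM at 0 Gy (log2 change -0.59, adjusted p = 0.0322). LIN7C, a PDZ protein of the Crumbs complex, fell 1.38-fold (adjusted p = 0.0384), and DLG1, of the Scribble complex, fell 1.29-fold (adjusted p = 0.0374). The Crumbs protein CRB3 had 0 reads in the 30 Gy libraries and 1 and 2 reads in the 0 Gy libraries, at or under the floor in both.

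Adherens junction genes, which hold the belt just below the tight junction, moved in 1 direction where they passed. Of 12 genes 9 were tested, 4 rose and 0 fell, with a median of 0.27. Over all tested genes, 10.8% were called higher and 9.06% lower. CDH2, N-cadherin, had 48.9 and 51.4 FPKM at 30 Gy and 35.4 and 37.5 FPKM at 0 Gy (log2 change 0.45, adjusted p = 0.0142). JUP, plakoglobin, rose 1.39-fold to 17.8 ± 1.61 FPKM, against 12.8 ± 0.436 at 0 Gy (adjusted p = 0.0263). The catenins CTNNA1 and CTNND1 rose 1.26-fold and 1.21-fold (adjusted p = 0.0232 and 0.0368). CDH1, E-cadherin, had 0 reads in both 30 Gy libraries and 2 and 7 reads in the 0 Gy libraries, so the epithelial cadherin that usually accompanies tight junctions was barely detected at either dose.

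**Figure D5:**
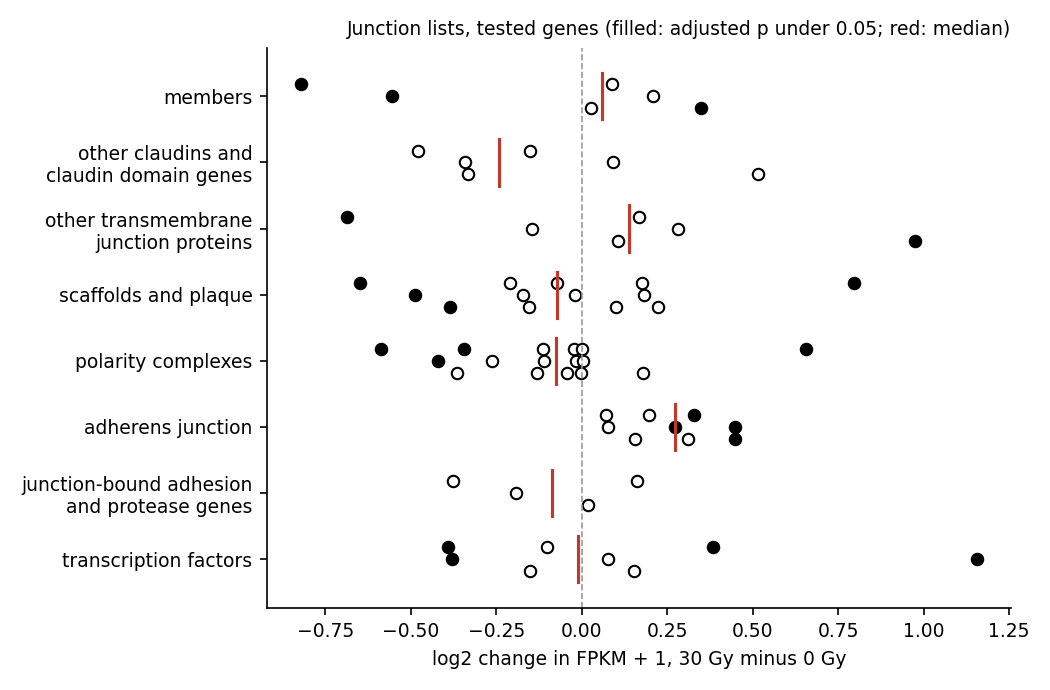
Log2 change in FPKM + 1, 30 Gy minus 0 Gy, of each tested gene on the member list and 7 further lists; filled points passed an adjusted p of 0.05 over all tested genes, and the red line is the list's median. Members are spread from -0.82 to 0.35, while the 9 tested adherens junction genes all lie above 0.

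Likeness to the called members was measured as the Euclidean distance between log2(FPKM + 1) values centred on each gene's mean, over the 4 libraries and 55 other tested genes of the member, junction, polarity and adherens lists. CXADR (distance 0.185) and AMOTL2 (0.215) were closest to LSR, and LIN7C (0.157) and CXADR (0.158) to CLDN1. CTNNA1 (0.0259) and CDH2 (0.105) were closest to TJP1. With 2 doses of 2 libraries, such a distance reflects little more than the size and sign of the change.

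Of 6 genes for membrane proteins and proteases that act at the junction, 4 were tested, and limma called 0, with 0 at an unadjusted p under 0.05 and 0 by voom. SPINT2, an inhibitor of membrane serine proteases, had 17.9 and 13.9 FPKM at 30 Gy and 18.3 and 18.1 FPKM at 0 Gy (adjusted p = 0.321).

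Of 18 transcription factors and splicing factors known to act on junction genes, 8 were tested, 2 rose and 2 fell, with a median of -0.01. Over all tested genes, 10.8% were called higher and 9.06% lower. The repressor SNAI1 had 7.10 and 5.11 FPKM at 30 Gy and 2.25 and 2.06 FPKM at 0 Gy (log2 change 1.16, adjusted p = 0.0120), and ZEB1 had 6.53 and 7.09 FPKM at 30 Gy and 4.84 and 5.12 FPKM at 0 Gy (log2 change 0.38, adjusted p = 0.0326). TWIST1 fell 1.41-fold and KLF4 1.33-fold (adjusted p = 0.0434 and 0.0267). GRHL2, OVOL1 and OVOL2, activators or guardians of epithelial junction genes, and the repressor ZEB2 had 0 reads in all 4 libraries. ESRP1, an epithelial splicing factor, had 0 reads in the 30 Gy libraries and 4 and 19 reads in the 0 Gy libraries. What any of these factors did to the members was not tested.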

How the data were processed

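The authors deposited 1 table of FPKM values per gene and library, with gene lengths, with coordinates on hg38, the build named in the submitters' processing notes; aligner and counter: not given in the sources used here. Identifiers and positions of all 58735 genes equalled those of GENCODE 29. FPKM times length was a whole multiple of 1 step per library for 100% of values above 0 (tolerance 0.001), which gave whole reads. Depth was 15920861 to 17261121 reads; floors (3 reads) and 95% Poisson intervals cover counting error only. The 13379 genes that reached an FPKM of 1 in 2 or more libraries were compared with limma 3.58.1 in R 4.3.3 (eBayes with trend, two-sided, log2(FPKM + 1), no covariate, Benjamini-Hochberg adjustment at 0.05), after the code was tested on simulated data. Changes on this scale understate those of low genes. Promoter sequences came from RefSeq (GRCh38.p14).

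The members and gene lists were chosen with earlier results of these data known. All 9 members are named; from each further list, up to 4 called genes with groups that do not overlap, by size of change, or else the 2 most abundant tested genes; 1 gene that this rule names is not reported here. MARVELD2, ILDR1, ILDR2, EPCAM, CRB3, CDH1, ESRP1, GRHL2, OVOL1, OVOL2, ZEB2, CLDN22, the single marker genes and genes sharing exons were added after their values were seen. Alternatives were a pseudocount of 0.1, quantile normalization, median centring, a filter at FPKM 5 or none, eBayes without trend or robust, a replicate block, voom and each library left out.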

Additional observations from a re-analysis of the deposited data

How the results depend on the processing

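Whole-table counts and the calls of members both depended on the setting. limma called 2654 genes; with every gene above 0 tested it called 604, voom on recovered reads called 4227, and voom with at least 10 reads in 2 libraries, chosen after the data were seen, called 4715. Leaving out 1 library gave 0 to 898 genes: limma called 898 without 30 Gy replicate 1, 862 without 30 Gy replicate 2, and 0 without either of the 0 Gy replicates (3422 and 3460 at an unadjusted p under 0.05). Members called higher numbered 1, and 0 with no filter or without any 1 library. Members called lower numbered 2, against 1 with no filter and 0 to 2 when a library was left out. With the replicate block, 1926 genes and the same 3 members were called; the deviations of same-numbered libraries had a correlation of -0.026, and the numbers are not stated to pair anything. LSR passed in 12 of 14 alternatives (log2 change -0.93 to -0.77), CLDN1 in 10 (-0.63 to -0.48) and TJP1 in 9 (0.31 to 0.39), each keeping its direction in all 14. CLDN4 passed in 0 of 14 (0.15 to 0.26) and CLDN12 in 0 of 14 (0.0035 to 0.17). F11R passed in none, and its change turned negative without the first 30 Gy library (-0.035) and without the second 0 Gy library (-0.0080); the range over left-out libraries was -0.035 to 0.091. In reads in place of FPKM, the differences in share were -8.05 points for CLDN1 (-7.21 in FPKM), 6.39 for CLDN4 (6.55) and 4.36 for CLDN12 (3.44). With 5 neighbours on each side, 5 of 9 neighbourhood medians moved by less than their spread over library pairs and 4 by more: TJP1 (0.06, against 0.17 with 10), CLDN4 (0.23, against 0.10), F11R (0.06, against 0.10) and CLDN7 (0.07, against 0.15). The causes were not tested. Depth limits CLDN7, CGN and OCLN.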

Other observations

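CDC42, a GTPase of cell polarity and a gene of the further lists, was listed at a very low value while sharing exons with another annotated gene of the same strand; it was picked out after its values were seen. It had 0.453 and 0.367 FPKM at 30 Gy and 0.319 and 0.343 FPKM at 0 Gy, and AL031281.2 covers 57.1% of its exonic bases. Whether reads in shared exons were left out of the counts was not tested, so the low value of CDC42 is not read as low expression.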
